A study of Rattus norvegicus with 26 samples.

Results

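The circadian clock genes described here are Dbp, Tef, Hlf, Nr1d1, Nr1d2, Per1, Per2, Per3, Arntl and Bhlhe41, 10 of the 17910 genes measured by RNA sequencing in the dentate gyrus (DG) of the rat hippocampus. They were picked by name after earlier results of these same comparisons were known. The differences between groups are therefore given for these 10 genes as a description with standard errors and intervals, which test nothing. Tests are given for how the genes varied together among rats of a group, which the choice did not use, and for genes outside the 10, namely 38 other clock genes, genes that respond to glucocorticoids or to neuronal activity, and markers of cell types, whose lists were also drawn up with earlier results known.

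All 26 rats were male F344 rats aged 6 months, kept on a reversed light cycle. The Veh group (n = 10) received vehicle, the Dox group (n = 8) received doxorubicin, a DNA-damaging chemotherapy drug, at 2 mg/kg weekly over 4 weeks by intraperitoneal injection, and the Dox + ABT group (n = 8) received the same doxorubicin with ABT-263 at 12 mg/kg by oral gavage on 5 consecutive days every other week. ABT-263 (navitoclax) inhibits anti-apoptotic BCL-2 family proteins and is used as a senolytic, a drug that removes senescent cells. No rat received ABT-263 alone. The Veh rats also belonged to another ongoing study, all rats had been behaviorally tested before the tissue was taken, and 1 hemisphere of each animal gave the RNA. The time of day of tissue collection is not given in the sources used here.

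The mammalian clock is a feedback loop of transcription that runs in most cells, brain cells included. Arntl (also called Bmal1) pairs with Clock and switches on genes that carry an E-box. Among those genes are Per1, Per2 and Per3, whose proteins return to block Arntl and Clock, and Nr1d1 and Nr1d2 (REV-ERB alpha and beta), nuclear receptors that repress Arntl through the ROR element (RORE). Dbp, Tef and Hlf are transcription factors of the PAR bZIP family, which carry the rhythm to output genes through the D-box. Bhlhe41 (DEC2) is a repressor that competes for E-boxes. In rat tissues Arntl and Dbp peak at opposite times of the day.

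The elements that link these genes are shown where they occurred near a start site. RefSeq promoter windows of the rat assembly GRCr8, each 250 bases before and 50 bases after a start site, were found for 9 of the 10 genes (Nr1d1 had 2 windows). Hlf had no entry. Both strands were searched for the E-box CACGTG, the D-box TTATGTAA or TTACGTAA, the RORE core TAGGTCA and the cAMP response element TGACGTCA. In the sequences below, read 5′ to 3′ on the strand of the gene, the capitals mark the element, with up to 40 bases on each side inside the 250 upstream bases.

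Arntl, chr1:176766272-176766327, plus strand, RORE core beginning 16 bases before the start site: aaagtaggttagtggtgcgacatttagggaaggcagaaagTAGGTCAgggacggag
Tef, chr7:115206589-115206674, plus strand, E-box beginning 198 bases before the start site: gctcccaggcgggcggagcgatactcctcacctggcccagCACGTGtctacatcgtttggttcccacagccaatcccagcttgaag
Nr1d1 (the second window), chr10:84229600-84229685, minus strand, E-box beginning 191 bases before the start site: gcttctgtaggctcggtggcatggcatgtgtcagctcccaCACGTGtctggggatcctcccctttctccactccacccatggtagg
Per2, chr9:99497138-99497225, minus strand, D-box beginning 192 bases before the start site: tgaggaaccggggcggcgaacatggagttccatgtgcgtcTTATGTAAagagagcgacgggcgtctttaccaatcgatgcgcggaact
Bhlhe41, chr4:180569358-180569443, minus strand, E-box beginning 48 bases before the start site: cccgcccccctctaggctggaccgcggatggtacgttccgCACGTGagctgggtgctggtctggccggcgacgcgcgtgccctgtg

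The E-box letters were thus present in 3 of the 10 windows, against 6.42% of all 33469 rat promoter windows of that length. The D-box was in 1 of 10 windows (1.01% of all) and the RORE core in 1 of 10 (2.63% of all). The cAMP response element was in none of the 10 (1.83% of all). Of 34 windows found for other clock genes, 6 held the E-box (17.6%), 1 the D-box (2.94%), 2 the RORE core (5.88%) and none the cAMP response element. The windows of Dbp, Nr1d2, Per1 and Per3 held none of these letters, which says nothing of elements further away or of other spelling.

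The libraries held 14255791 to 20285401 normalized counts in all, which the low values place at about 10166231 to 24327755 reads. They differed in a way that the treatment labels do not explain. Splitting the rats along the main axis of variation within groups (28.4% of within-group variance) left 16 rats with a first kind of library (4 Veh, 5 Dox and 7 Dox + ABT) and 10 with a second kind (6 Veh, 3 Dox and 1 Dox + ABT). The share of counts from ribosomal protein genes was 1.06% ± 0.147 (SD, n = 16) for first-kind rats and 1.70% ± 0.227 (SD, n = 10) for the others. The kinds were found from the expression values, these genes included, and are no label of the study. Since they were unevenly spread over the groups and several clock genes differed with them, most differences below are also given with library kind added to the model (called kind-adjusted) or among first-kind rats alone. Within the second kind only Dox and Veh could be compared, since it held 1 Dox + ABT rat. Markers of dentate granule cells (5 of 6 measured, Prox1 among them) summed to between 10930 and 16214 normalized counts per Veh rat, between 10867 and 16100 per Dox rat and between 9585 and 12591 per Dox + ABT rat. Summed choroid plexus markers (5 of 5 measured) ran from 7.61 to 121 in Veh rats (median 73.8), from 10.0 to 150 in Dox rats (median 43.0) and from 25.0 to 351 in Dox + ABT rats (median 131), with Kl, Folr1 and Kcnj13 each averaging under 5. Their part in the differences of the clock genes was not tested.

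Dbp was lower in both doxorubicin groups than in Veh, by nearly equal amounts. The normalized count of Dbp was 1333 in the lowest Veh rat, 2048 at the median and 2500 in the highest. In Dox the lowest, median and highest values were 1008, 1202 and 1441, and in Dox + ABT they were 972, 1098 and 1608. Thus 7 of 8 Dox rats and 6 of 8 Dox + ABT rats lay below every Veh rat. Veh rats averaged 1868 ± 440 (SD, n = 10), Dox rats 1191 ± 137 (SD, n = 8) and Dox + ABT rats 1196 ± 235 (SD, n = 8). On the scale of log2(normalized count + 1), on which all differences below are given, Dox minus Veh was -0.62 (SE 0.13, 95% interval -0.88 to -0.36) and Dox + ABT minus Veh was -0.63 (SE 0.13, -0.89 to -0.37). Dox minus Dox + ABT was 0.01 (SE 0.13, -0.27 to 0.28). Leaving out any rat moved the first difference between -0.67 and -0.57 and the second between -0.69 and -0.58.

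**Figure D1:**
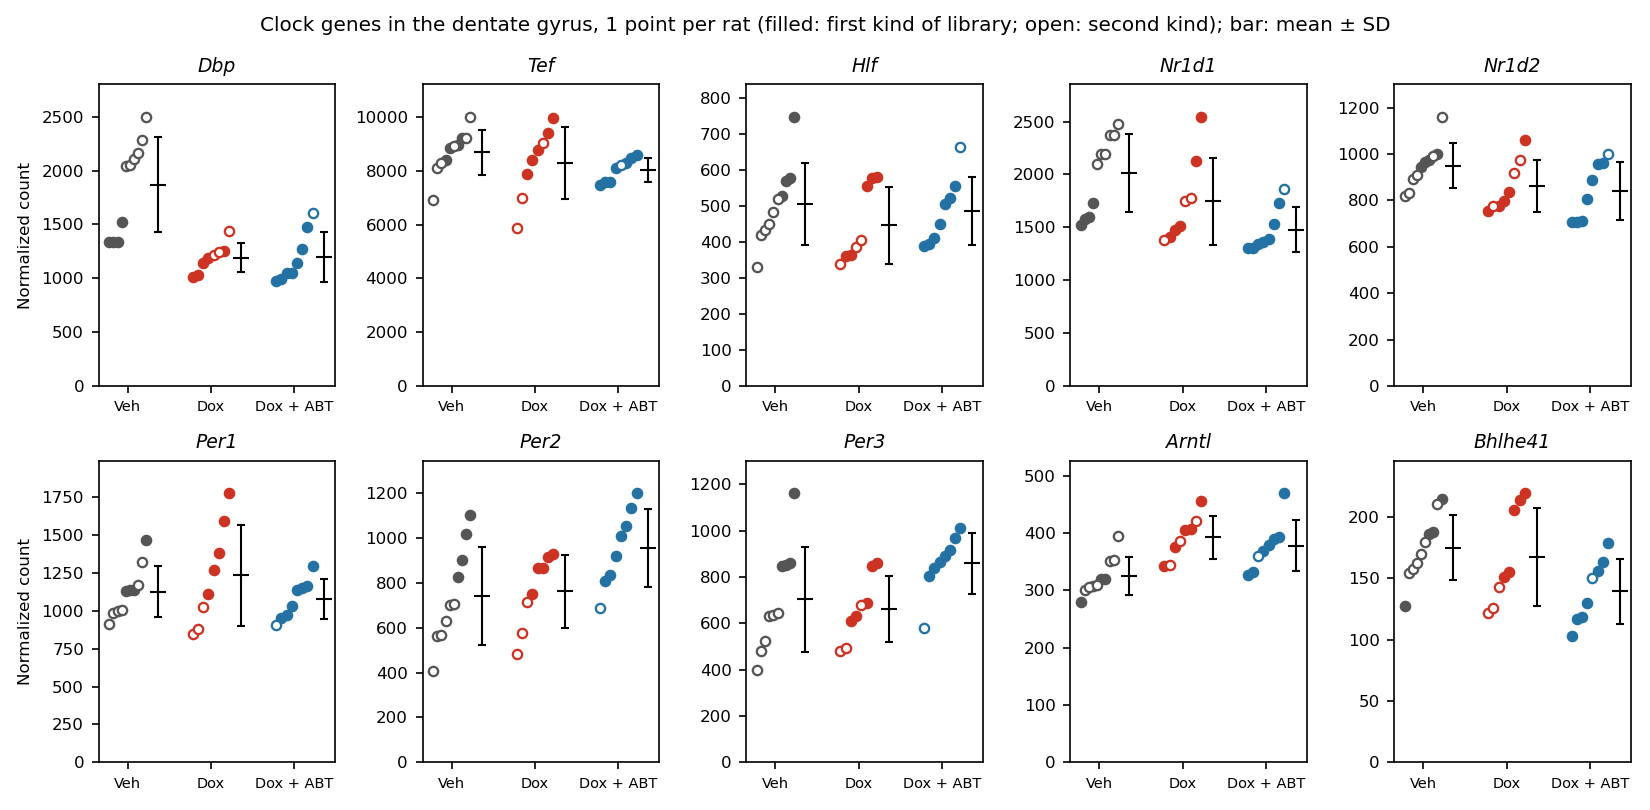
Normalized counts of the 10 clock genes, 1 point per rat in ascending order within Veh (n = 10), Dox (n = 8) and Dox + ABT (n = 8), with the mean ± SD beside each group; filled points are rats with the first kind of library and open points the second kind. In Dbp, 7 of 8 Dox rats and 6 of 8 Dox + ABT rats lie below the lowest Veh rat at 1333, and the Veh rats fall into a lower filled set and a higher open set.

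Among the Veh rats Dbp fell into 2 separate ranges that followed the kind of library. The 4 Veh rats of the first kind ranged from 1333 to 1519 and the 6 of the second kind from 2041 to 2500. Over all groups the second kind was higher in Dbp by 0.47 (SE 0.08) on the log2 scale. Within the first kind the Dox rats ranged from 1008 to 1251, below all 4 Veh rats, while the Dox + ABT rats reached 1471. How many of all genes separate between so few rats within a kind was not counted. The differences within the first kind were -0.30 (SE 0.11) for Dox minus Veh and -0.29 (SE 0.10) for Dox + ABT minus Veh. Within the second kind Dox minus Veh was -0.75 (SE 0.10), the 3 Dox rats lying between 1217 and 1441. The kind-adjusted differences over all rats were -0.51 (SE 0.08) and -0.40 (SE 0.09). Dbp had 2 rows in the deposited table, which hold transcripts of the gene, and both were lower: the row with 78.3% of the counts differed by -0.70 (SE 0.15) in Dox and -0.63 (SE 0.17) in Dox + ABT, and the smaller row by -0.38 (SE 0.24) and -0.63 (SE 0.22).

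Tef and Hlf, the other PAR bZIP genes, had smaller differences than Dbp over all rats, though Hlf did not among first-kind rats. No difference between genes was tested. Tef had a median of 8895 in Veh (6920 to 10012), against 8594 in Dox (5870 to 9955) and 8172 in Dox + ABT (7469 to 8608), so the groups overlapped widely. Dox minus Veh was -0.08 (SE 0.09) and Dox + ABT minus Veh -0.11 (SE 0.09) for Tef. Hlf, with medians of 501, 395 and 478, differed by -0.18 (SE 0.14) and -0.05 (SE 0.14), and among first-kind rats by -0.33 (SE 0.16) and -0.39 (SE 0.15).

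Arntl, the activator of the loop, was higher in both doxorubicin groups, opposite in sign to Dbp. The lowest, median and highest normalized counts were 279, 315 and 396 in Veh, 343, 396 and 455 in Dox, and 327, 374 and 469 in Dox + ABT. All 8 Dox rats and all 8 Dox + ABT rats lay above the Veh median, and 4 and 1 of them above every Veh rat. The means were 325 ± 33.3 (SD, n = 10), 392 ± 38.2 (SD, n = 8) and 378 ± 44.5 (SD, n = 8). Dox minus Veh was 0.27 (SE 0.08, 95% interval 0.11 to 0.44), Dox + ABT minus Veh 0.22 (SE 0.08, 0.05 to 0.38) and Dox minus Dox + ABT 0.06 (SE 0.08, -0.11 to 0.23). Unlike Dbp, Arntl hardly varied with the kind of library, the second kind minus the first being 0.03 (SE 0.07). Its kind-adjusted differences from Veh were 0.28 (SE 0.08) and 0.23 (SE 0.09). They were 0.37 (SE 0.11) and 0.30 (SE 0.10) within the first kind, and Dox minus Veh was 0.19 (SE 0.12) within the second.

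Arntl was also among the steadier transcripts from rat to rat. Its standard deviation within groups was 0.15 on the log2 scale, above that of only 8.57% of the 12129 genes with a mean normalized count of at least 50, whose median was 0.26. Tef (0.17, above 15.2% of those genes) and Nr1d2 (0.18, above 18.0%) were steady too. Per2 and Per3 varied the most of the 10 genes, each with 0.36, above 77.8% and 77.4% of those genes.

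The repressors of Arntl were lower in the mean of both doxorubicin groups. Nr1d1 ranged from 1521 to 2474 in Veh with a median of 2145, from 1379 to 2545 in Dox with a median of 1629, and from 1304 to 1862 in Dox + ABT with a median of 1376. The Dox range enclosed the Veh range. The lowest Veh rat exceeded 4 of 8 Dox rats and 5 of 8 Dox + ABT rats. The differences from Veh were -0.21 (SE 0.12) in Dox and -0.44 (SE 0.12, 95% interval -0.68 to -0.19) in Dox + ABT. As in Dbp, the Veh rats divided by kind, with 1521 to 1733 in the first kind and 2100 to 2474 in the second. Dox minus Veh in Nr1d1 was 0.13 (SE 0.14) within the first kind and -0.49 (SE 0.10) within the second, so its sign differed between the kinds. The first-kind value rested on Dox 1 (2129) and Dox 2 (2545), as the other 3 first-kind Dox rats (1404, 1472 and 1510) lay below every first-kind Veh rat. The kind-adjusted Dox + ABT minus Veh was -0.31 (SE 0.12), and among first-kind rats it was -0.18 (SE 0.13). Nr1d2 had medians of 955, 819 and 846 and differed from Veh by -0.14 (SE 0.09) in Dox and -0.18 (SE 0.09) in Dox + ABT. It showed little difference between the kinds of library (0.05, SE 0.08), and 4 of 8 rats in each doxorubicin group lay below every Veh rat.

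The period genes, which encode the repressors of the loop, differed from one another in their pattern over the groups. Per1, which also responds directly to glucocorticoids and to neuronal activity, had a Veh median of 1131, a Dox median of 1189 and a Dox + ABT median of 1081. Its Dox values were spread from 849 to 1773, with 2 rats above and 2 rats below every Veh rat. Dox minus Veh was 0.10 (SE 0.12) and Dox + ABT minus Veh -0.06 (SE 0.12). The sign of Dox minus Veh differed between kinds of library, at 0.22 (SE 0.13) within the first and -0.21 (SE 0.12) within the second. Dox minus Dox + ABT in Per1 was 0.16 (SE 0.13), 0.25 (SE 0.10) kind-adjusted and 0.36 (SE 0.11) within the first kind. Among first-kind Dox rats Per1 was 1593 in Dox 1, 1773 in Dox 2, 1379 in Dox 9, 1268 in Dox 10 and 1110 in Dox 13. First-kind Dox + ABT rats ran from 950 to 1295.

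Per2 and Per3 had their highest medians in Dox + ABT. Per2 had a lowest, median and highest value of 408, 704 and 1103 in Veh, 481, 808 and 928 in Dox, and 686, 965 and 1198 in Dox + ABT. Per3 had 399, 639 and 1161 in Veh, 480, 656 and 862 in Dox, and 581, 879 and 1013 in Dox + ABT. In both genes 7 of 8 Dox + ABT rats lay above the Veh median and all 8 Dox rats below the Dox + ABT median. Dox + ABT minus Veh was 0.40 (SE 0.16) in Per2 and 0.34 (SE 0.16) in Per3. These values went with the kind of library, which 7 of 8 Dox + ABT rats but 4 of 10 Veh rats shared: the second kind was lower by 0.62 (SE 0.10) in Per2 and 0.61 (SE 0.10) in Per3. The kind-adjusted Dox + ABT minus Veh was 0.10 (SE 0.11) in Per2 and 0.05 (SE 0.11) in Per3. Dox minus Dox + ABT was -0.34 (SE 0.17) in Per2 and -0.39 (SE 0.17) in Per3, and -0.18 (SE 0.11) and -0.24 (SE 0.11) kind-adjusted. Within the first kind Per3 differed by -0.35 (SE 0.12) in Dox minus Veh and by -0.32 (SE 0.10) in Dox minus Dox + ABT.

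Bhlhe41, the E-box repressor, was lower in Dox + ABT. Its lowest, median and highest values were 127, 174 and 215 in Veh, 121, 153 and 219 in Dox, and 103, 140 and 178 in Dox + ABT. The groups overlapped, with 3 of 8 Dox + ABT rats below every Veh rat and 2 of 8 Dox rats there as well. Dox + ABT minus Veh was -0.33 (SE 0.13, 95% interval -0.60 to -0.06) and -0.42 (SE 0.14) kind-adjusted, while Dox minus Veh was -0.09 (SE 0.13). Within the kinds Dox minus Veh in Bhlhe41 was 0.09 (SE 0.18) in the first and -0.40 (SE 0.14) in the second.

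**Figure D2:**
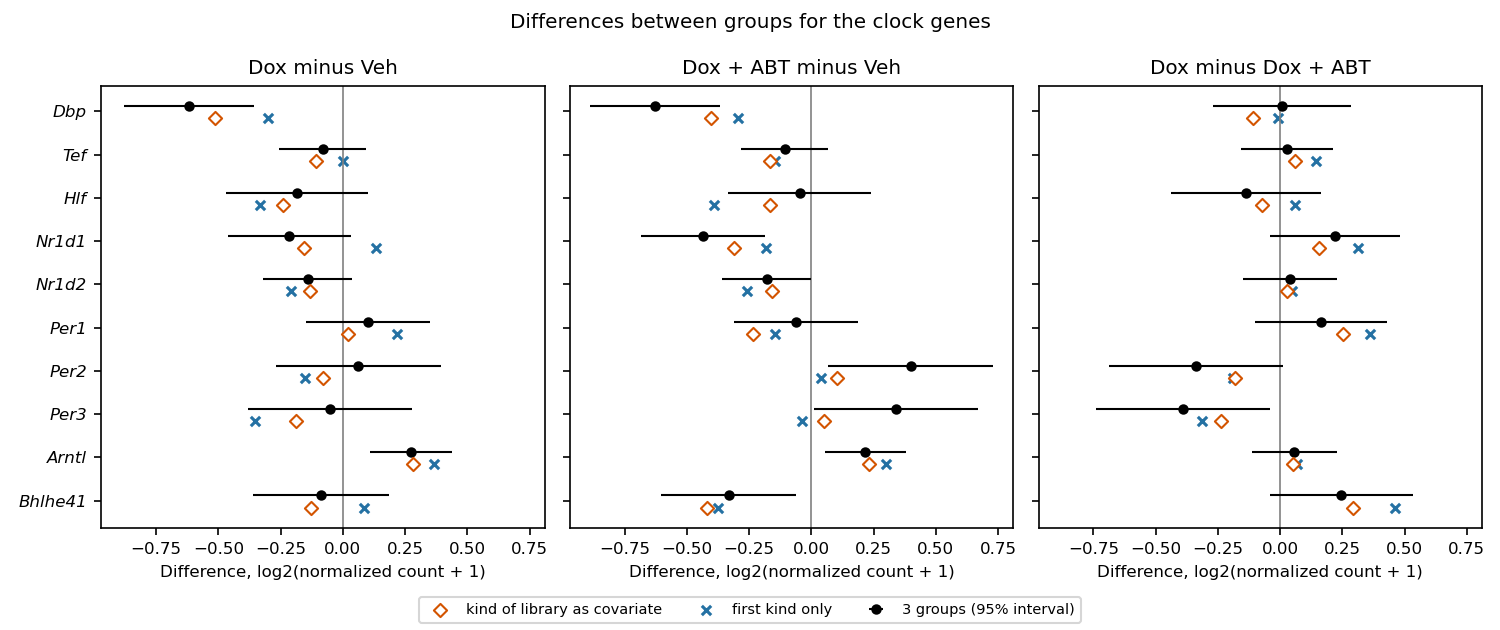
Difference between groups in each clock gene on the log2(normalized count + 1) scale for Dox minus Veh, Dox + ABT minus Veh and Dox minus Dox + ABT; black points and lines are the estimate and 95% interval over 26 rats, open diamonds the kind-adjusted estimate, and crosses the estimate within the 16 rats of the first kind. Dbp lies at -0.62 and -0.63 and Arntl at 0.27 and 0.22 against Veh, and the diamonds of Per2 and Per3 in Dox + ABT minus Veh lie near 0.

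By the threshold of the study (p below 0.01 before adjustment), limma's moderated test called 2.87% of the 15595 genes tested in Dox minus Veh, 7.84% in Dox + ABT minus Veh and 4.03% in Dox minus Dox + ABT. In Dox + ABT minus Veh the 606 genes called higher and 616 called lower became 100 and 114 kind-adjusted, and 94 and 78 within the first kind. These counts rested on single rats in either direction. In Dox + ABT minus Veh they became 339 and 355 without Dox + ABT replicate 5, 346 and 349 without Dox + ABT 6, 358 and 384 without Dox + ABT 3, 334 and 362 without Veh 9, 398 and 362 without Veh 1 and 427 and 361 without Veh 2. They became 951 and 1179 without Veh 11, 886 and 970 without Veh 10 and 978 and 854 without Dox + ABT 4, where 1181, 544 and 690 genes had an adjusted p below 0.05 (limma), against 0 with all rats. In Dox minus Veh the 159 higher and 289 lower became 83 and 183 without Dox 1, 89 and 181 without Dox 2, 278 and 383 without Dox 7, 269 and 382 without Dox 14 and 269 and 438 without Veh 11. In Dox minus Dox + ABT the 362 and 267 became 241 and 178 without Dox + ABT 5. All 10 clock genes passed the filter on low values. As a description only, the same call put 1 of the 10 higher (Arntl) and 1 lower (Dbp) in Dox, and 2 lower in Dox + ABT (Dbp and Nr1d1). As these comparisons chose the genes, nothing is read from the counts. The median difference over the 10 genes was -0.08, -0.09 and 0.03 in the respective comparisons, against 0.005, -0.001 and -0.001 over all genes tested. In each of the 3 comparisons and each of the 10 genes the groups overlapped, as they did in all but 0.0192%, 0% and 0.135% of the genes tested. Both comparisons with Veh used the same 10 Veh rats.

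Other measures differed between the same groups. Summed microglial markers (4 of 4 measured) had a median of 3208 in Veh with a range of 2048 to 4286, 2324 in Dox (1760 to 3016) and 2141 in Dox + ABT (1923 to 3333). That sum also followed the kind of library, with a median of 2141 in the first kind and 3260 in the second. Summed astrocyte markers (5 of 5 measured) had medians of 41539 (36226 to 56558), 31848 (29841 to 37275) and 37832 (34806 to 50607). Its members differed in direction: in Dox minus Veh 3 of 5 were called lower and 2 had estimates above 0, in Dox + ABT minus Veh 1 was called lower and 3 had estimates above 0, and in Dox minus Dox + ABT 1 was called lower. Of the 4 microglial markers, 2 were called lower in Dox minus Veh and 1 in Dox + ABT minus Veh. Over all genes tested 1.85% were called lower in Dox minus Veh, 3.95% in Dox + ABT minus Veh and 1.71% in Dox minus Dox + ABT, and 2.32% higher in the last. The calls among granule cell and meningeal markers are named after their values were seen. Of 5 granule cell markers, C1ql2 (-0.46) and C1ql3 (-0.55) were called lower in Dox + ABT minus Veh, and C1ql3 (0.66) higher in Dox minus Dox + ABT. Over all 5 the median difference was -0.13 in the former, where 1 lay above 0 (at 0.22). In the latter the median was 0.04, and 1 lay below 0. Lum, of 3 meningeal markers, was lower in Dox minus Veh (-0.90) and in Dox minus Dox + ABT (-0.77). Summed markers of CA1 pyramidal cells (3 of 3 measured) had a median of 7038 for Veh rats (1823 to 13627), 5579 for Dox rats (1588 to 12191) and 3319 for Dox + ABT rats (2142 to 19215), and of 3570 in the first kind and 7038 in the second. The granule cell sum had a median of 11965 in the first kind and 15176 in the second. In bulk tissue fewer cells of a type and less RNA per cell cannot be told apart. The part of these markers in the differences of the clock genes was not tested.

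Arntl was also set against Dbp from rat to rat, a relation among rats of a group that says nothing of time of day. The deviations of the 26 rats from their group means gave a Pearson's r of 0.02 (permutation p = 0.94) and a Spearman's rho of -0.03 (p = 0.88), and r was -0.07 without the 2 rats farthest in Arntl. From group and kind means r was -0.29 (permutation p = 0.24, rho -0.21 with p = 0.35, r -0.37 without the 2 farthest). Within kinds the relation was -0.52 in the first kind (n = 16, permutation p = 0.089, rho -0.41 with p = 0.15, -0.22 without the 2 farthest) and 0.30 in the second (n = 9, exact permutation p = 0.45, rho 0.27 with exact p = 0.53, r -0.41 without the 2 farthest). After adjustment over the 9 relations of Arntl with the other genes, p was 0.94 over all rats from group means, 0.52 from group and kind means, 0.27 in the first kind and 0.56 in the second.

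Over all 26 rats the relation of Arntl to Tef was the strongest of the 9, though within the first kind Arntl with Per2 had a larger r (-0.62) and within the second Arntl with Per3 a larger rho (0.85). Rats with more Arntl than their group mean had less Tef, with r = -0.50 (permutation p = 0.0079, 0.071 adjusted over the 9 relations) and rho = -0.63 (p = 0.00068, adjusted 0.0061). Without the 2 rats farthest in Arntl r was -0.54. With deviations from the means of group and kind together r was -0.63 (permutation p = 0.0015, adjusted 0.013) and rho -0.73 (p = 0.00039, adjusted 0.0035), and r was -0.70 without the 2 farthest. The sign held in both kinds of library, at -0.59 in the first (n = 16, permutation p = 0.033, adjusted 0.15) and -0.76 in the second (n = 9, exact permutation p = 0.027, adjusted 0.24). Over all 45 pairs of the 10 genes, the adjusted p of r was 0.051 from group means and 0.033 from group and kind means. So the relation of Arntl and Tef by r passed an adjusted 0.05 only once the kind was taken out, while by rho it passed either way.

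**Figure D3:**
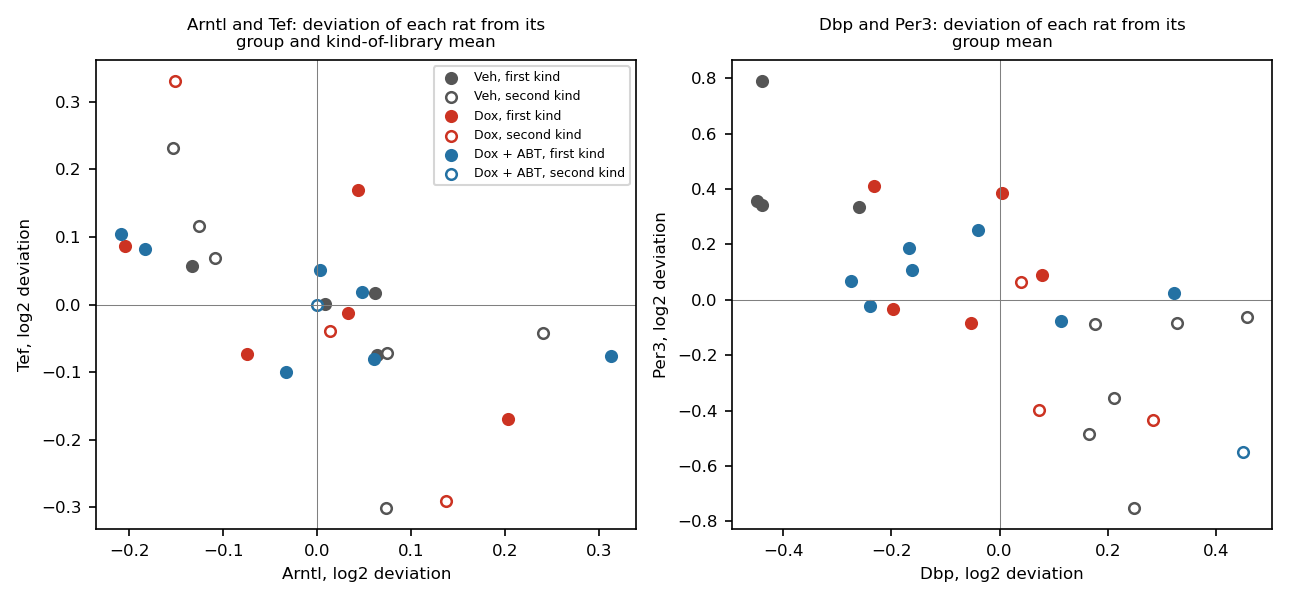
Deviations of each of the 26 rats on the log2 scale, Arntl (x axis) against Tef (y axis) from the mean of group and kind of library on the left, and Dbp (x axis) against Per3 (y axis) from the group mean on the right; colors give the group, filled points the first kind and open points the second. Arntl and Tef run opposite in both filled and open points (r = -0.63), while Dbp and Per3 (r = -0.72) separate filled from open points.

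Most of the other strong relations ran along the kind of library. From group means, 6 of the 45 pairs had an adjusted p below 0.05 by Pearson's r, which was 3 positive and 3 negative pairs. By Spearman's rho 8 pairs did, the same 6 with Arntl and Tef (rho -0.63, adjusted p = 0.0051) and Nr1d1 and Per2 (rho -0.54, adjusted p = 0.049) added. How many pairs of genes outside the clock list reach such values was not counted. Whether these relations, Arntl with Tef and Nr1d1 with Per3 included, are particular to clock genes was thus not tested. Per2 with Per3 had the highest r at 0.84 (permutation p = 1e-05, the smallest the permutations can give; rho 0.75 with p = 7e-05), Dbp with Nr1d1 had 0.66 and Per1 with Per2 0.61. Dbp was opposite to Per3 (-0.72) and to Per2 (-0.58). With deviations from group and kind means these became 0.54 for Per2 with Per3 (adjusted p over 45 pairs 0.20), 0.33 for Dbp with Nr1d1 (0.59), 0.28 for Per1 with Per2 (0.59), -0.08 for Dbp with Per3 (0.88) and 0.30 for Dbp with Per2 (0.59). Dbp with Per2 was 0.61 within the first kind (n = 16, permutation p = 0.029, adjusted 0.37), opposite in sign to its value over all rats.

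Of those 6 pairs, Nr1d1 with Per3 was the one with an adjusted p below 0.05 from group and kind means as well. It had r = -0.73 from group means (permutation p = 7e-05, adjusted over 45 pairs 0.0016; rho -0.83 with p = 1e-05, adjusted 0.00045) and r = -0.63 from group and kind means (p = 0.00066, adjusted 0.030; rho -0.71 with p = 0.00049, adjusted 0.011). Without the 2 rats farthest in Nr1d1 these were -0.77 and -0.65. Within the kinds r was -0.69 (n = 16, permutation p = 0.013, adjusted 0.37) and -0.71 (n = 9, exact permutation p = 0.046, adjusted 0.43).

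**Figure D4:**
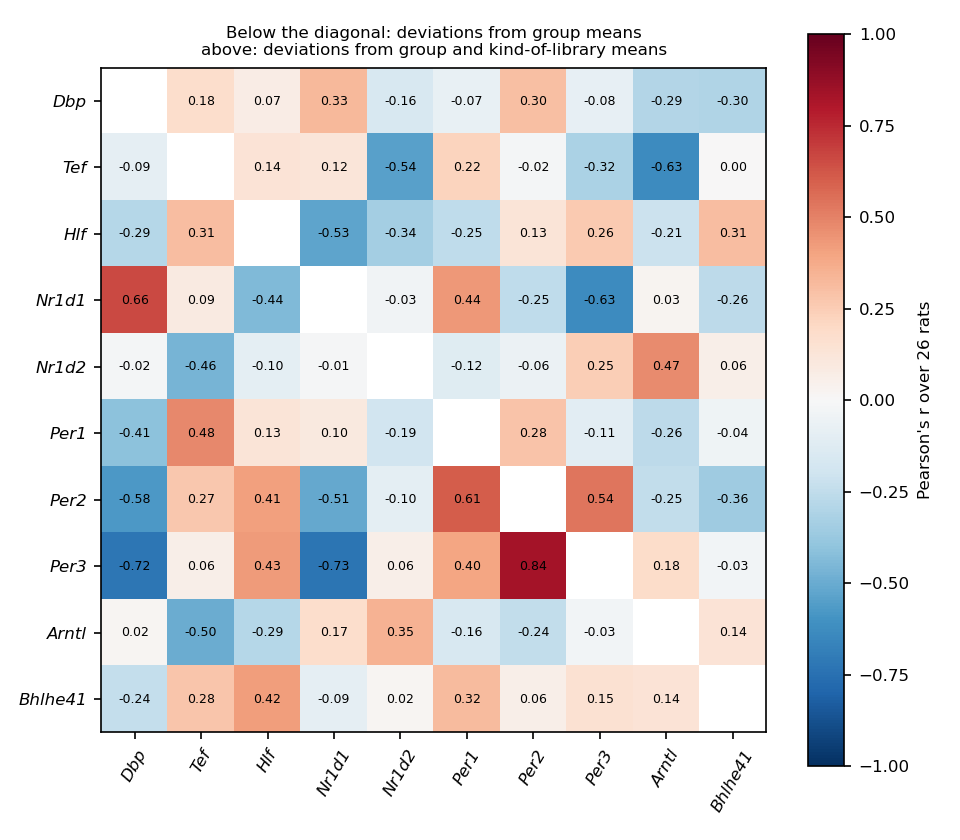
Pearson's r between the 10 clock genes over 26 rats, below the diagonal from deviations of log2(normalized count + 1) from group means and above it from deviations from group and kind-of-library means; red is positive and blue negative. Below the diagonal Per2 with Per3 reaches 0.84 and Dbp with Per3 -0.72, and above it the strongest cells are Arntl with Tef and Nr1d1 with Per3 at -0.63.

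Genes were ranked by how closely they followed Dbp from rat to rat. Over deviations from group and kind means (26 rats, 12128 genes with a mean of at least 50), the 8 genes most like Dbp were Sh3bp2 (r = 0.77), Sptlc1 (0.72), Gal3st1 (0.71), Use1 (0.71), Bin1 (0.70), Nkain4 (0.69), Lgi4 (0.69) and Mfng (0.69). The 4 least like it were Asxl1 (-0.76), Cecr2 (-0.73), Zdhhc17 (-0.70) and Epha7 (-0.69). These values were picked as extremes of 12128 and have no test. Sptlc1 encodes a subunit of the enzyme that starts sphingolipid synthesis, Gal3st1 the enzyme that makes the myelin lipid sulfatide, and Epha7 an ephrin receptor. The member nearest to Dbp was Nr1d1 (r = 0.33), at rank 1861.

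The rest of the clock showed few calls. Of 40 further clock genes listed, 38 were tested. In Dox minus Veh 2 of 38 passed p below 0.01, both lower, against 1.85% of all genes tested called lower and 1.02% called higher. In Dox + ABT minus Veh 2 of 38 passed, both lower (3.95% of all lower, 3.89% higher), and in Dox minus Dox + ABT 1 of 38 passed, higher (2.32% of all higher, 1.71% lower). No call had an adjusted p below 0.05 (limma, Benjamini-Hochberg over 15595 genes), and at an unadjusted p below 0.05 there were 3, 4 and 3 genes. The median difference over the 38 genes was 0.02, -0.03 and 0.01. Within single kinds of library other genes passed, named here after their values were seen. Fabp7, a fatty acid binding protein of astrocytes and radial glia, differed in Dox minus Veh by -0.60 within the first kind (limma p = 0.0012) and by 0.56 within the second (p = 0.0022), and by -0.77 in Dox minus Dox + ABT within the first (p = 1.8e-05). Ciart, a repressor of the loop, differed by -0.85 in Dox minus Veh within the second kind (p = 0.00048) and by 0.75 in Dox minus Dox + ABT within the first (p = 0.0087). In the latter the medians were close, at 135 normalized counts for Dox (5 rats, up to 347) and 125 for Dox + ABT (7 rats, up to 138). Cry1, the partner of the period proteins, differed by -0.50 in Dox minus Veh within the second kind (p = 0.0033) and by 0.10 within the first (p = 0.42). The differences between kinds were not tested.

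The genes lower in Dox were Rorb and Wee1. Rorb encodes a receptor of the ROR family, which binds the element shown in the Arntl window. It ranged from 59.6 to 170 in Veh (median 78.1), from 42.2 to 90.5 in Dox (64.8) and from 40.1 to 99.6 in Dox + ABT (69.6). Dox minus Veh was -0.60 (SE 0.20, limma p = 0.0060, adjusted 0.31) and Dox + ABT minus Veh -0.40 (SE 0.20, p = 0.056). Wee1, a cell cycle kinase whose gene is driven by the clock in liver, ranged from 393 to 496 in Veh, from 329 to 438 in Dox and from 357 to 467 in Dox + ABT, and 5 of 8 Dox rats lay below every Veh rat. Dox minus Veh in Wee1 was -0.21 (SE 0.07, limma p = 0.0063, adjusted 0.31). Both calls sat near the threshold. Leaving out any 1 of Veh 9, 10, 11 and 12 or Dox 1, 2 and 13 took the p of Rorb above 0.01 (to 0.017 at most), and leaving out Veh 1, 4, 9 or 12 or Dox 1, 5 or 10 did so for Wee1 (to 0.019 at most). Kind-adjusted, p was 0.0091 for Rorb and 0.011 for Wee1.

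The genes lower in Dox + ABT were Por and Csnk2b. Por, the electron donor of microsomal cytochrome P450 enzymes, ranged from 1631 to 2504 in Veh, from 1727 to 2104 in Dox and from 1369 to 1978 in Dox + ABT. Dox + ABT minus Veh was -0.34 (SE 0.09, limma p = 0.0011, adjusted 0.11) and stayed below p = 0.01 without any 1 rat. Csnk2b, the regulatory subunit of casein kinase 2, ranged from 1165 to 2602 in Veh and from 1100 to 1723 in Dox + ABT, a difference of -0.47 (SE 0.15, limma p = 0.0044, adjusted 0.11). Its p rose above 0.01, to 0.011 at most, without Veh 1, Veh 4 or Dox + ABT 11. Both genes were higher in the second kind of library, by 0.31 (SE 0.06) in Por and 0.56 (SE 0.09) in Csnk2b. The kind-adjusted differences were -0.19 (p = 0.014) and -0.20 (p = 0.071), and within the first kind they were -0.10 (p = 0.28) and -0.02 (p = 0.89). The next smallest p belonged to Crebbp, a coactivator, at 0.34 (p = 0.038), which was 0.10 (p = 0.44) kind-adjusted.

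Usp2, a deubiquitinase of clock proteins and a clock-driven gene, was higher in Dox than in Dox + ABT. It ranged from 815 to 1148 in Veh, from 915 to 1467 in Dox and from 742 to 1077 in Dox + ABT. All 8 Dox rats lay above the Dox + ABT median, and 3 above every Dox + ABT rat. The difference was 0.32 (SE 0.11, limma p = 0.0055, adjusted 0.21), and Dox minus Veh in Usp2 was 0.21 (SE 0.10, p = 0.047). The call was lost without Dox 1, Dox 2, Dox 7, Dox + ABT 1, Dox + ABT 2 or Dox + ABT 11 (p of 0.017 at most). The kind-adjusted difference was 0.28 (SE 0.10). Por (0.24, p = 0.022) and Csnk2a1, the catalytic subunit of casein kinase 2 (0.19, p = 0.022), had the next smallest p in this comparison.

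**Figure D5:**
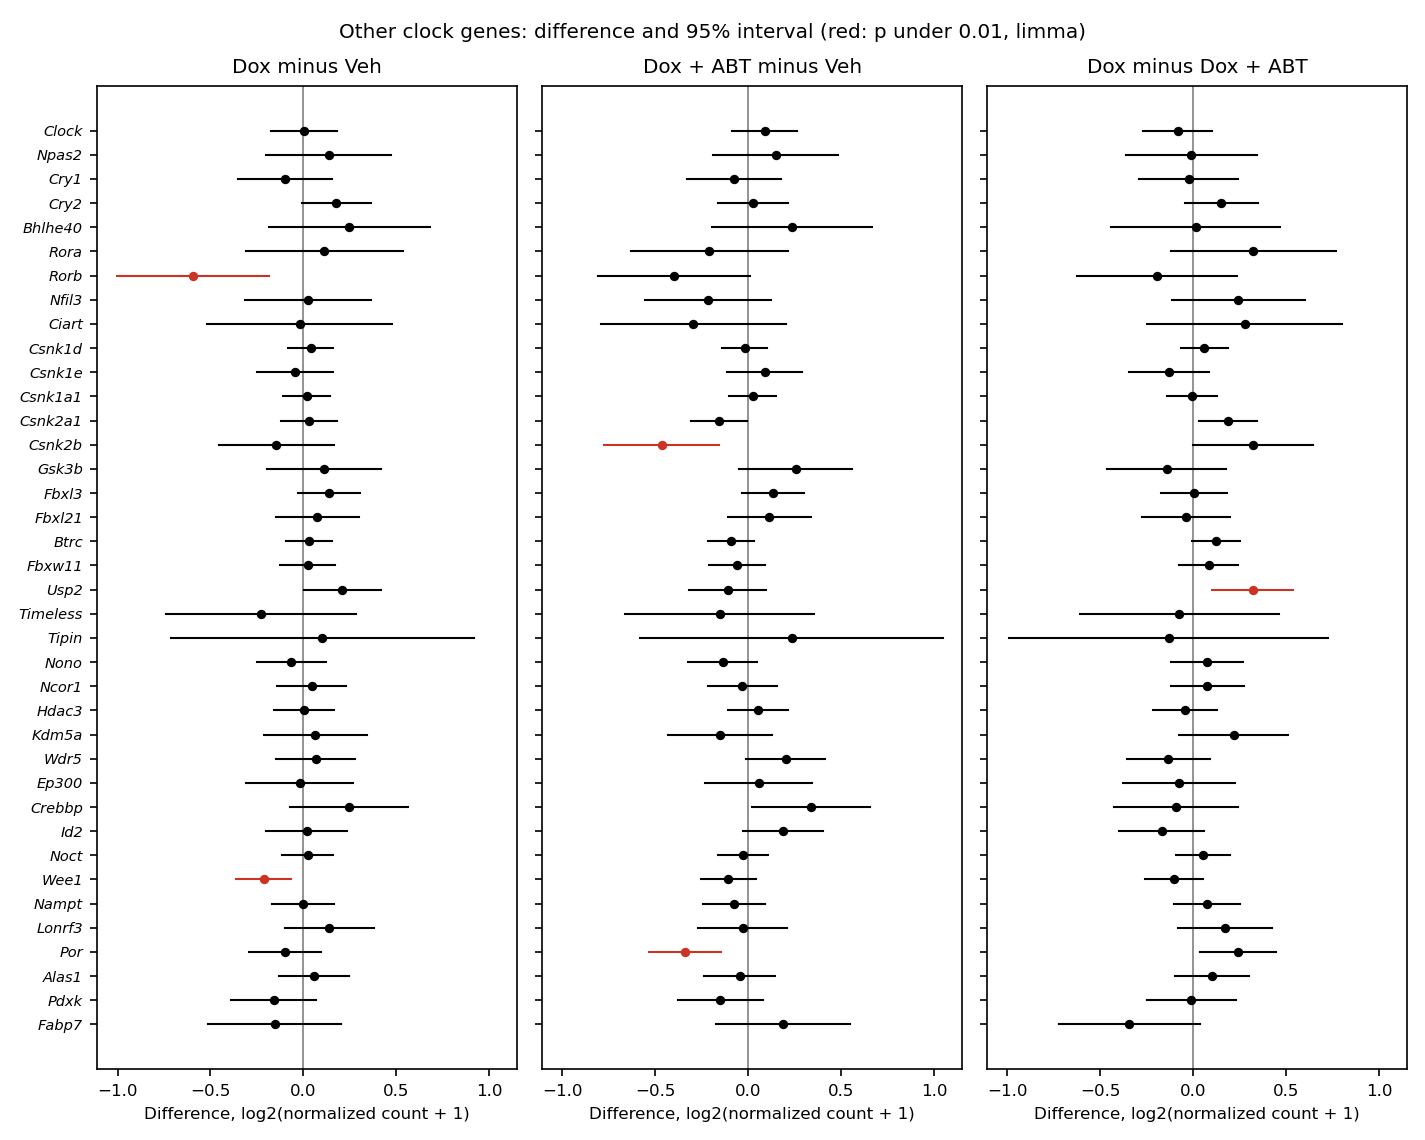
Difference and 95% interval on the log2(normalized count + 1) scale of the 38 other clock genes tested, for Dox minus Veh, Dox + ABT minus Veh and Dox minus Dox + ABT (limma, 26 rats); red marks p below 0.01. Red points are Rorb and Wee1 in the first comparison, Csnk2b and Por in the second and Usp2 in the third.

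Transcripts of genes that respond to glucocorticoids or to neuronal activity were counted in the same rats, while these signals themselves were not measured here. Of 16 tested genes that respond to glucocorticoids, 4 were higher at unadjusted p below 0.01 in Dox minus Veh (1.02% of all genes) and none lower, and 9 were higher in Dox minus Dox + ABT (2.32% of all) and none lower, with median differences of 0.36 and 0.55. In Dox + ABT minus Veh none was higher and 1 was lower (median -0.17), against 3.89% and 3.95% of all genes. The summed counts of this list ran from 10558 to 22282 in Dox rats, with a median of 13043. They ran from 9757 to 12806 in Veh rats (median 11712) and from 9115 to 11233 in Dox + ABT rats (median 9707). The sum had a median of 10870.5 over first-kind rats and 12197.6 over second-kind rats. The smallest p in Dox minus Veh were those of Sult1a1 (0.79, limma p = 0.00023), Fkbp5, a cochaperone of the glucocorticoid receptor (0.39, p = 0.0029), and Sgk1 (0.66, p = 0.0069), none with an adjusted p below 0.05. Kind-adjusted, these differences were 0.81, 0.36 and 0.48 in the same order. Among first-kind rats they were 0.90, 0.52 and 0.81, and among second-kind rats 0.68, 0.17 and 0.11. Leaving out any rat moved them between 0.64 and 0.92, 0.29 and 0.45, and 0.51 and 0.81. Of 12 immediate early genes, which follow neuronal activity, 2 were lower by the same call in Dox minus Veh (1.85% of all genes) and none higher (1.02%), namely Npas4 (-1.16, p = 0.00083) and Arc (-0.76, p = 0.0088); Btg2 was at 0.29 (p = 0.029). None of the 12 passed in Dox + ABT minus Veh (3.89% of all genes higher and 3.95% lower), where 2 had an unadjusted p below 0.05, while in Dox minus Dox + ABT 1 was higher (2.32% of all genes) and 1 lower (1.71%). The part of either list in the values of the clock genes was not tested.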

How the data were processed

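DG RNA from 26 rats was sequenced on an Ion Proton after poly(A) selection. Per the labels and the study's methods, the authors trimmed the reads, aligned them to rn6 with STAR 2.5.3a in Partek Flow, and normalized the counts by Median Ratio. The deposited table gives these normalized counts (a signal, not raw reads), and 75.7% to 78.9% of low values per library were whole reads within 0.02 reads, so raw counts were not recovered. The 24012 rows, named by gene and transcript, were summed by gene identifier to 17910 genes, and 15595 with a mean of at least 5 were tested.

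limma 3.58.1 (R 4.3.3) was fitted to log2(normalized count + 1) with 3 groups in 1 fit and a variance trend, two-sided, p below 0.01 as in the study's methods with Benjamini-Hochberg adjustment beside it. Correlations used 100000 two-sided permutations within groups (all 4320 in the second kind, without its lone Dox + ABT rat). The kinds of library came from the first principal component of within-group deviations of genes with a mean of at least 20, split into 2 sets of least spread. The limma fit was tested on simulated data that held no kinds of library, and the split into kinds was not tested in this way. Alternatives were pseudocounts of 0.5 and 5, no filter or a mean of 20, no trend, robust fitting, array weights, the compared groups alone, trimmed mean of M values (TMM) scaling written for this purpose, quantile normalization, a replicate block, the kind of library, the largest row of a gene, and leaving out each rat.

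The clock genes and all gene lists were chosen with earlier results of these data known. Named genes were the 10 clock genes, other clock genes at p below 0.01 or with the 3 smallest p per comparison, the 8 genes most and 4 least like Dbp, and the 3 smallest p in Dox minus Veh of the glucocorticoid and immediate early lists. Fabp7, Ciart, Cry1, C1ql2, C1ql3 and Lum were named after their values were seen. Sirt1 of the clock list and the markers Tdo2, Iyd, Pecam1 and Col1a2 were not analysed here. The rats are separate animals. Levels of different genes were not compared, since transcript lengths were not used.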

Additional observations from a re-analysis of the deposited data

Results flagged for a closer look

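Among 45 groups of values examined for a rat far from the rest of its group, 2 were found, where chance gives about 1 in 20. Nr1d2 was 1161 normalized counts in Veh 12, and the next Veh rat was at 1000.3. Arntl was 469 normalized counts in Dox + ABT 11, and the next Dox + ABT rat was at 394.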

How the results depend on the processing

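Of 1210 recomputed differences of the 10 clock genes, 1202 moved by less than the SD of that gene within groups and 8, all from comparisons within 1 kind of library, moved further. Of 202 recomputed differences of the 5 other clock genes called, 41 lost p below 0.01 and none turned its sign. The count of other clock genes called, 2, 2 and 1 in Dox minus Veh, Dox + ABT minus Veh and Dox minus Dox + ABT, became 4, 8 and 3 with array weights, which also raised the calls over all genes from 159 higher and 289 lower to 1442 and 1708 in Dox minus Veh, from 606 and 616 to 2425 and 2872 in Dox + ABT minus Veh, and from 362 and 267 to 938 and 674 in Dox minus Dox + ABT. It became 1 and 0 in the comparisons with Veh when library kind entered the model, 1, 0 and 3 within the first kind, and was 3 in Dox minus Veh within the second. Calls over all genes were then 167 higher and 254 lower, 100 and 114, and 425 and 318 in the 3 comparisons with library kind in the model, 382 and 363, 94 and 78, and 718 and 557 within the first kind, and 264 and 292 in Dox minus Veh within the second. The other clock genes called within kinds were Fabp7 in the first kind, with Ciart and Por beside it in Dox minus Dox + ABT, and Cry1, Ciart and Fabp7 in the second. The count of other clock genes called was 1 in Dox minus Veh with the compared groups alone, and 0 in Dox minus Dox + ABT with quantile normalization. The causes were not tested. Leaving out 1 rat gave 0 to 2, 1 to 2 and 0 to 2. The median of the 10 clock genes ranged from -0.21 to 0.11 in Dox minus Veh (0.11 with array weights). The correlation of Arntl with Dbp turned negative with TMM (-0.027), quantile normalization (-0.013), the kind of library (-0.29) and within the first kind (-0.52), and ranged from -0.16 to 0.12 without 1 rat.

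Rats of different groups share only a title number: deviations of 16 same-numbered pairs correlated between -0.22 and 0.44 (median -0.01, 6 above 0.1). With the replicate block the other clock genes called were 2, 2 and 1, the medians of the 10 clock genes were -0.05, -0.08 and 0.03, the correlation of Arntl with Dbp was 0.28, and all genes called in Dox minus Veh were 401 higher and 364 lower. Without raw counts, counting error per gene is not known.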
